A study of Mus musculus with 10 samples.

Results

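The 9 serotonin receptor genes Htr1a, Htr1b, Htr1d, Htr1f, Htr2a, Htr2c, Htr4, Htr5a and Htr7 were followed through single-nucleus RNA sequencing of the mouse paraventricular thalamus (PVT) and its neighbours. They were taken by symbol from the 33502 genes in the deposited matrix, and all 9 were present. Their UMIs, which are counts of individually tagged RNA molecules, were summed per library in 3 ways. The sums were taken over the cell types of the deposited annotation, over neurons split by the regional marker genes C1ql3, Adarb2, Gad2 and Nwd2, and over C1ql3 neurons split by Col12a1, Cadps2 and Npsr1.

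Nuclei came from tissue punches of the paraventricular thalamus of C57BL/6J mice that were 12 weeks old, and the labels name no transgene, deletion or treatment in any library. The series held 10 libraries, of which 6 are called female in their titles and 4 carry no sex there, while the deposited metadata record these 4 as male. Punches from several mice were pooled for each library of the set of 4 described in the study's methods, so a library and not a mouse is the replicate here. The 4 libraries without a sex in the title held 875 to 7213 nuclei and 7568267 to 55956635 UMIs each, and the 6 female libraries held 1049 to 1615 nuclei and 5119927 to 12891409 UMIs each. In all there were 20503 nuclei, of which 10410 were annotated as neurons, and 20 of the 20483 distinct barcodes occurred in more than 1 library. In each of the 8 deposited cell types the markers listed for that type had their highest level in that type. The study assigned the types by some of these same markers, such as Rbfox3 and Mal. For those genes the outcome follows from the labels and is no independent check.

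Serotonin is released in the forebrain by axons of the raphe nuclei, and the paraventricular thalamus is among the thalamic nuclei that these axons reach. Its receptors, apart from the channel-forming Htr3 family, couple to G proteins. The Htr1 and Htr5 families couple to Gi/o proteins and lower cyclic AMP, and the Gi/o-coupled receptors can also open GIRK potassium channels. The Htr2 family couples to Gq proteins and phospholipase C, whereas Htr4, Htr6 and Htr7 couple to Gs proteins and raise cyclic AMP. Htr1b and Htr1d encode receptors known from axon terminals, where they reduce transmitter release, and the Htr2c transcript is a known substrate of RNA editing.

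The members spanned a wide range of sampling depth, which sets how firmly each can be described. Over all nuclei, Htr2c was counted with 50811 UMIs and Htr7 with 22984, whereas Htr1a had 39 UMIs and Htr2a had 163. Between these lay Htr4 with 4131 UMIs, Htr1f with 2078, Htr1d with 1460, Htr1b with 892 and Htr5a with 370. These totals describe sampling depth alone, since the reads come from the 3′ ends of transcripts and capture differs between genes. In the GENCODE M21 annotation of the GRCm38 assembly, which matches the submitters' mm10 build, the Gq-coupled members lie at chrX:146962513-147197277 on the plus strand (Htr2c) and at chr14:74640840-74709494 on the plus strand (Htr2a). The Gs-coupled members lie at chr18:62324204-62496577 on the plus strand (Htr4) and at chr19:35958734-36057507 on the minus strand (Htr7). Of the Gi/o-coupled members, Htr1a lies at chr13:105443639-105448122 (plus), Htr1b at chr9:81628291-81633828 (minus), Htr1d at chr4:136423524-136444398 (plus), Htr1f at chr16:64924729-65105854 (minus) and Htr5a at chr5:27842149-27855088 (plus). The coordinates span the whole gene from its outermost exon ends.

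To ask which cell types carry receptor transcripts, the summed UMIs of each cell type were compared with the mean of the other cell types on the log2 scale, with the library as a block. The test was the quasi-likelihood test of edgeR with Benjamini-Hochberg adjustment over all 9842 genes that passed its filter on low counts. A gene was called where the adjusted p was under 0.05 and the log2 difference was over 0.5 in size. Levels are given as counts-per-million (CPM), a gene's UMIs relative to all UMIs of the sum, with TMM scaling between sums, as the lowest, median and highest library, and a sum entered the fit where it held at least 10 nuclei. Htr2c and Htr7 were the members that passed the filter in this comparison, and both were highest in neurons in 10 of 10 libraries.

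Htr2c, which encodes a Gq-coupled receptor, had 382, 482 and 644 CPM in neurons, the highest being the library with no sex in its title 4, with the others at 382 to 517 CPM. In astrocytes it had 13.5, 21.3 and 95.8 CPM, and in oligodendrocytes 13.4, 39.1 and 139 CPM. The lowest neuron sum lay above the highest sum of every other cell type, the nearest being an oligodendrocyte precursor (OPC) sum of 247 CPM. The log2 difference between neurons and the mean of the other types was 3.52 ± 0.18 (SE; adjusted p = 1.23e-28).

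Htr7, which encodes a Gs-coupled receptor, had 141, 212 and 301 CPM in neurons. Its level was 3.98, 7.78 and 28.2 CPM in astrocytes and 5.73, 11.9 and 39.6 CPM in oligodendrocytes. A sum of OPCs at 234 CPM overlapped the neurons, and the remaining types stayed below them. In OPCs Htr7 had 0, 0 and 234 CPM, with 5 of 9 libraries at 0. Neurons were higher than the mean of the other types by 3.63 ± 0.18 on the log2 scale (adjusted p = 1.72e-29), against 34.8% of all tested genes called higher and 23.4% called lower in neurons. Both members were also called lower in astrocytes, where 19.7% of genes were called lower and 21.5% higher, by 1.26 ± 0.26 for Htr2c (adjusted p = 3.05e-05) and 1.48 ± 0.33 for Htr7 (adjusted p = 8.66e-05). The mean here included neurons, which lay above astrocytes by 4.18 ± 0.28 for Htr2c and 4.48 ± 0.26 for Htr7. By pairs, astrocytes were lower than ependymal cells and microglia for both members, and than OPCs for Htr7 (adjusted p of 2.16e-05 to 0.045). The OPC median of 0 CPM for Htr7 lay below the astrocyte median of 7.78 CPM, so this OPC pair ran against the medians. The pairs with oligodendrocytes, endothelial cells and fibroblasts, and with OPCs for Htr2c, were not called (adjusted p of 0.0719 to 0.943). In oligodendrocytes Htr7 was lower by 0.97 (adjusted p = 0.0121), where 26.2% of genes were called lower and 20.5% higher. This call was lost without the library with no sex in its title 3 (adjusted p = 0.0634) or 4 (adjusted p = 0.11), and the log2 difference was −0.09 in the female libraries alone. The mean in this contrast included neurons, which lay above oligodendrocytes by 4.03 ± 0.29 for Htr7. In the same test by pairs, oligodendrocytes were lower than ependymal cells (adjusted p = 0.00191) and OPCs (adjusted p = 0.0216). Here too the OPC pair ran against the medians, which were 0 CPM in OPCs and 11.9 CPM in oligodendrocytes. The pairs with astrocytes, microglia, endothelial cells and fibroblasts were not called (adjusted p of 0.335 to 0.678). In the female libraries alone the astrocyte value of Htr7 was −1.11 with an adjusted p of 0.102.

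**Figure D1:**
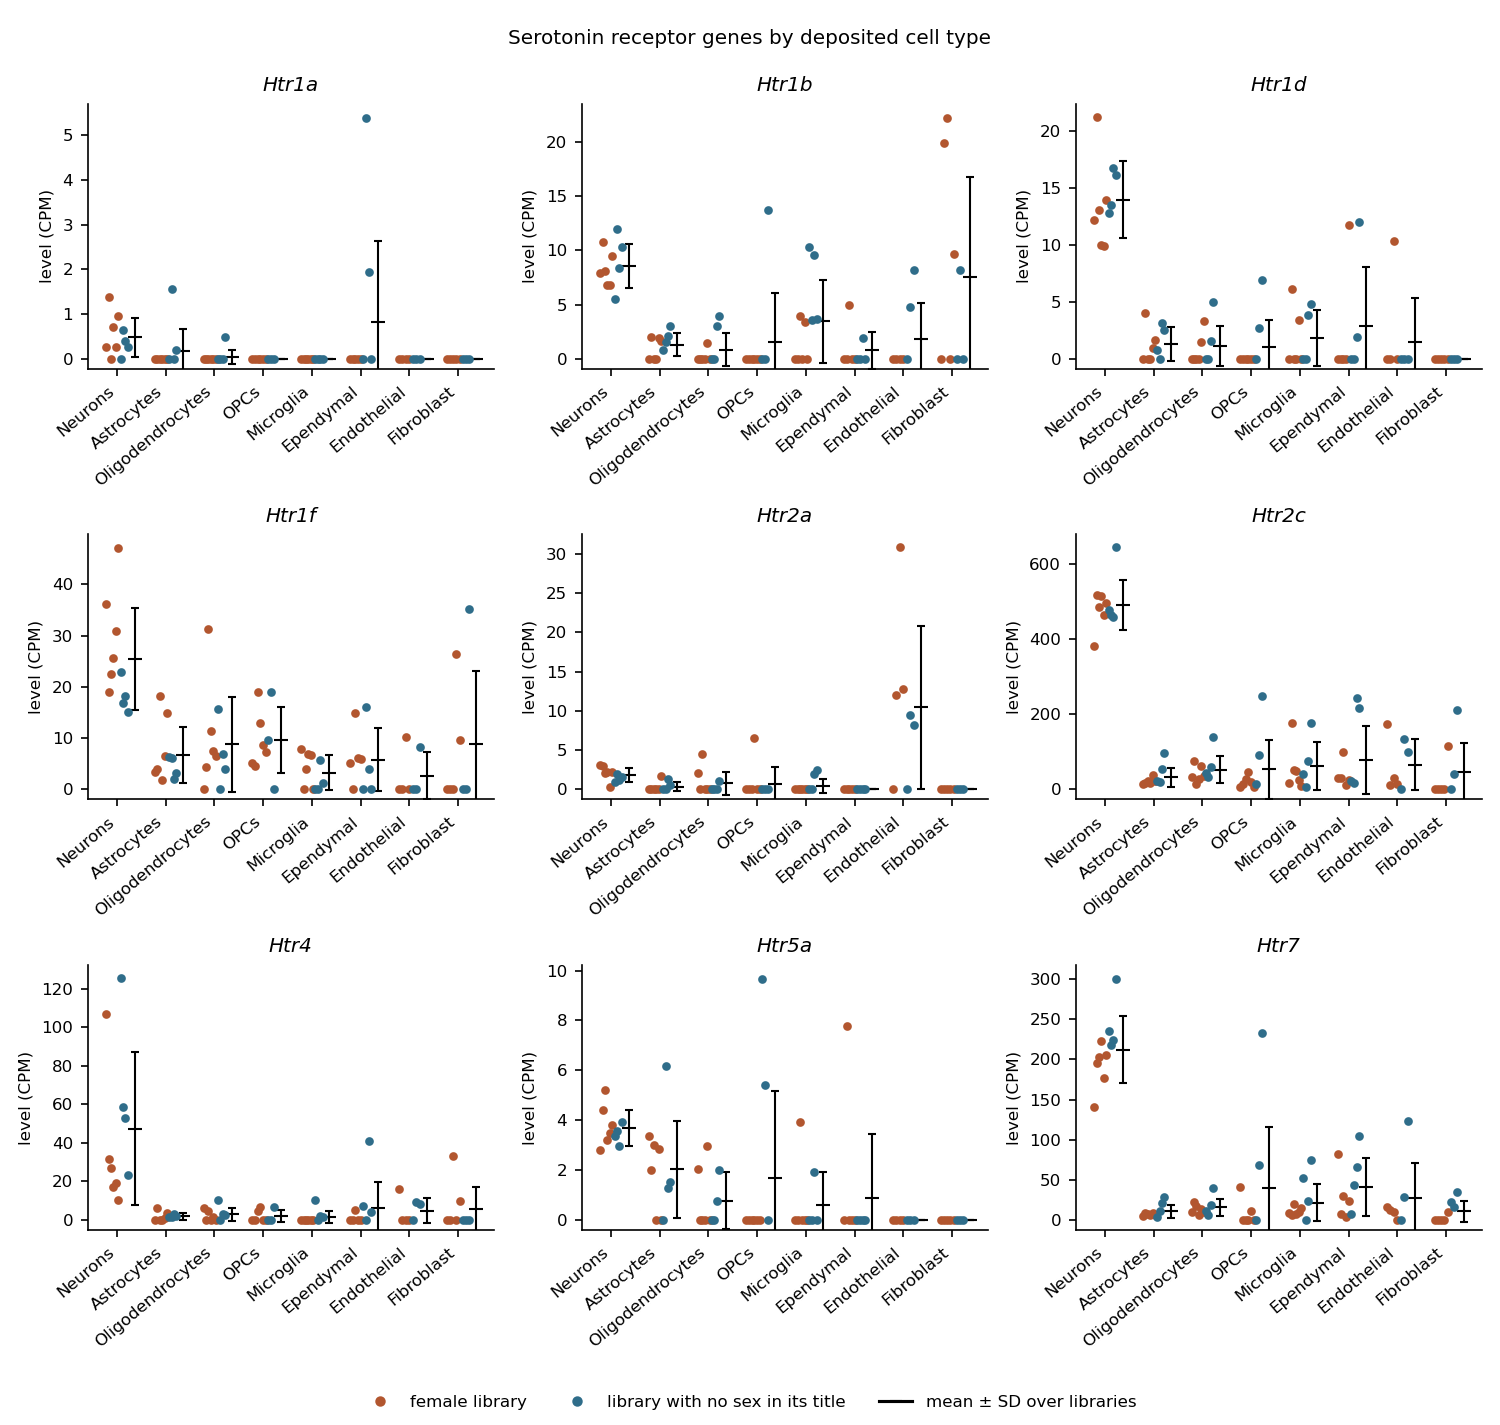
Levels of the 9 serotonin receptor genes in CPM (vertical axes, each with its own range) by deposited cell type; each point is a library, and the bars give the mean and SD over libraries, cut at the axis where they run below 0. Htr2c and Htr7 stand at 382 to 644 and 141 to 301 CPM in neurons and mostly far below this elsewhere, whereas Htr1a stays at or under 1.38 CPM in neurons.

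Receptor UMIs in non-neuronal sums were accompanied by UMIs of a neuronal gene. The neuronal marker Rbfox3 had 255 CPM in neurons and 19.8 to 56.8 CPM in the other cell types, with the UMIs of all libraries pooled. Its part in the glial levels of Htr2c and Htr7 was not tested.

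The other 7 members were too sparse for the filter, and their differences come from the same test without it. Of these, 6 were called higher in neurons, namely Htr4, Htr1d, Htr5a, Htr1f, Htr1b and Htr2a, by 3.93, 3.81, 2.92, 2.32, 2.14 and 1.69 on the log2 scale in that order, against 36.8% of all genes called higher there without the filter. In neurons Htr4 had 10.4, 29.1 and 126 CPM. Htr1f had 15.2, 22.7 and 47.1 CPM, Htr1d had 9.89, 13.2 and 21.2 CPM, and Htr1b had 5.49, 8.21 and 12.0 CPM. Htr5a, whose protein is a Gi/o-coupled receptor, lay between 2.80 and 5.21 CPM in neurons. Htr4 had the widest range over libraries of these.

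Htr1a, which encodes the somatodendritic autoreceptor of raphe neurons, had 34 of its 39 UMIs in neurons, with 0, 0.323 and 1.38 CPM, and its neuronal difference did not pass (adjusted p = 0.0566). Htr2a, the Gq-coupled receptor through which psychedelic drugs act, had 0.257, 1.96 and 3.05 CPM in neurons. In endothelial sums Htr2a had 0, 9.49 and 30.9 CPM over 7 libraries, a difference of 4.59 without the filter (adjusted p = 2.98e-06, with 7.35% of genes called higher in this way). The endothelial value rests on 8 UMIs, with 2 of 7 libraries at 0.

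To set detection beside level, each nucleus was thinned to 2000 UMIs and the share of nuclei with at least 1 UMI was taken per library. This left out 197 shallower neurons and 847 shallower oligodendrocytes, and the median depth before thinning was 11300 UMIs in the neurons kept and 2759 in the oligodendrocytes kept. Htr2c was seen in 38.4% ± 3.72 of neurons and in 8.69% ± 6.88 of oligodendrocytes (mean ± SD, n = 10 libraries). Htr7 was seen in 24.3% ± 3.12 of neurons and 2.36% ± 2.00 of oligodendrocytes, and Htr4 in 5.61% ± 3.81 and 0.457% ± 0.946. The oligodendrocyte share is used as a background for the neuronal shares, and the source of the UMIs in oligodendrocytes was not tested. The share for Htr1a in neurons was 0.0731% and 0 of 1615 oligodendrocytes had a UMI of it, which allows a share of up to 0.186% by counting error alone.

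At this thinned depth, 61.1% of neurons had a UMI of at least 1 member, compared with 12.1% of oligodendrocytes. Without thinning, the share of neurons with a UMI of Htr2c was 66.1%, and at 1000 UMIs per nucleus it was 24.8%, so these shares are tied to the depth chosen.

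Neurons were then split by regional markers, because punches of this size take in the mediodorsal thalamus, the habenula and the bed nucleus of the stria terminalis beside the paraventricular thalamus. A neuron was assigned to the marker gene with the highest scaled level, given at least 2 UMIs and at least 25% of the mean share among the nuclei that carry it. This gate was set after the files had been examined. It gave 4380 C1ql3 neurons, 1855 Adarb2 neurons, 193 Gad2 neurons and 836 Nwd2 neurons, and left 3146 neurons without a group. The groups are named by their gene. C1ql3 was listed for the paraventricular thalamus, Adarb2 for the mediodorsal thalamus, Gad2 for the GABAergic neurons of the bed nucleus of the stria terminalis and Nwd2 for the habenula.

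Further listed markers were highest in the expected group for 3 of 3 genes of the mediodorsal list, 4 of 4 of the Gad2 list and 6 of 6 of the habenula list. All 4 genes listed for the intermediodorsal nucleus were also highest in the Adarb2 group, at 4.12 to 25.6 CPM, so this group was not only mediodorsal by its markers. The paraventricular list did not single out the C1ql3 group in the same way, since its gene Gal had 16.3 CPM in the Gad2 group and 12.5 CPM in the C1ql3 group. The Gad2 group also held 266 CPM of Slc17a6, the vesicular glutamate transporter, beside 64.2 CPM of Gad1, and it had sums in 6 libraries only. By these markers the group was not purely GABAergic. Of its 193 nuclei, 112 lay in the deposited cluster 5, and 36, 16 and 15 lay in the C1ql3-led clusters 4, 1 and 2. The median depth of the Nwd2 neurons was 7422 UMIs per nucleus against 12836 in C1ql3 neurons.

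Of the members, 6 passed the filter in this split, in which 12192 genes were tested. By median, Htr4 was highest in the Nwd2 group, Htr7 and Htr1d in the C1ql3 group, Htr2c in the Adarb2 group, and Htr1f and Htr1b in the Gad2 group. Htr7, Htr1d and Htr1b were called higher in C1ql3 and in Gad2 neurons. The mean in both contrasts included Nwd2 neurons, where these members were called lower. Of all genes, 13.5% were called higher and 7.25% lower in C1ql3 neurons, and 7.66% higher and 3.73% lower in Gad2 neurons. The share of all genes called in both was not taken. For Htr1d the Gad2 value reversed under other groupings, as given below. The Gad2 call of Htr7 was lost in 1 of 21 alternatives (adjusted p = 0.583).

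**Figure D2:**
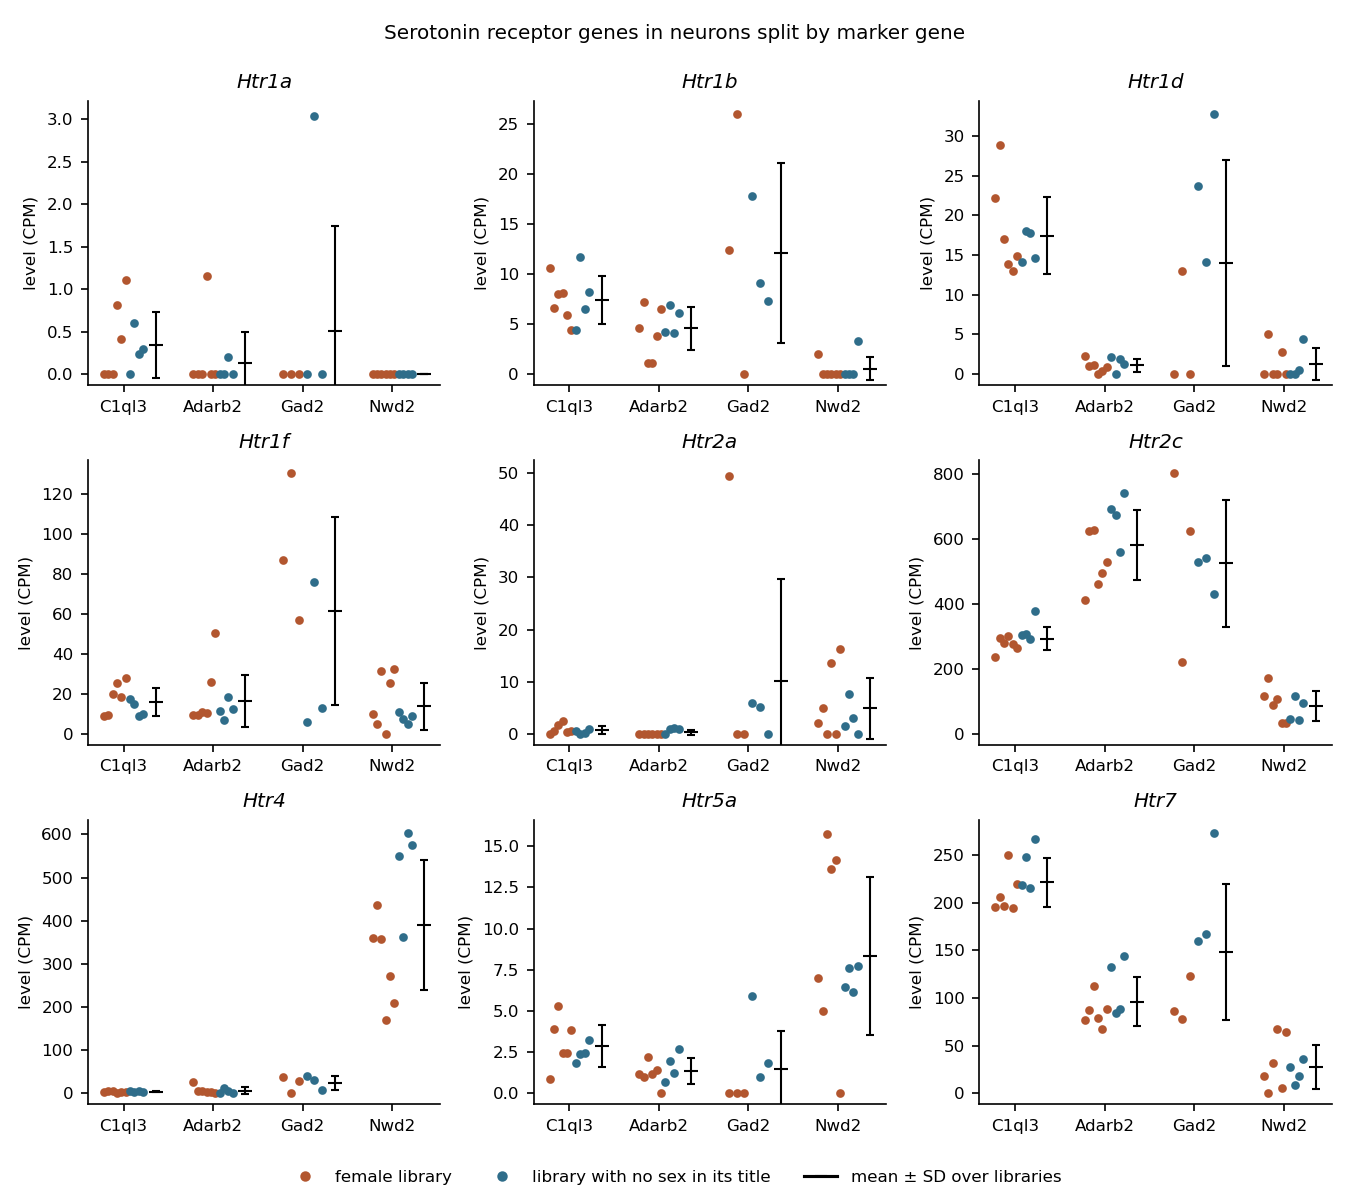
Levels of the 9 serotonin receptor genes in CPM (vertical axes, each with its own range) in neurons grouped by C1ql3, Adarb2, Gad2 or Nwd2; each point is a library, with the mean and SD over libraries beside it, cut at the axis where they run below 0. Htr4 reaches 170 to 603 CPM in Nwd2 neurons and at most 41.6 CPM in any other group, whereas Htr7 and Htr2c are lowest there.

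Htr4, whose Gs-coupled receptor raises cyclic AMP, had 170, 362 and 603 CPM in Nwd2 neurons. It had 1.63, 4.14 and 5.86 CPM in C1ql3 neurons, 1.17, 4.99 and 25.6 CPM in Adarb2 neurons, and 0, 30.4 and 41.6 CPM in Gad2 neurons. The Nwd2 neurons did not overlap any other group and were highest in 10 of 10 libraries. Their difference from the mean of the other groups was 5.81 ± 0.17 on the log2 scale (adjusted p = 4.13e-28), a 56.1-fold difference, and it lay between 5.12 and 6.42 under every alternative run. In this contrast Htr4 was the member called higher and 5 members were called lower, against 20.4% of all genes called higher and 21.5% called lower. C1ql3 and Adarb2 neurons were each lower for Htr4, and they did not differ from each other beyond their spread (0.28 ± 0.35 on the log2 scale, Adarb2 minus C1ql3). After thinning, 40.7% ± 10.6 of Nwd2 neurons and 0.717% of C1ql3 neurons had a UMI of Htr4. The C1ql3 share lay close to the 0.457% of oligodendrocytes.

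Htr2c followed another order. Its levels were 412, 593 and 743 CPM in Adarb2 neurons and 222, 535 and 805 CPM in Gad2 neurons. In C1ql3 neurons it had 238, 294 and 378 CPM, and in Nwd2 neurons 32.4, 91.5 and 171 CPM. Every Adarb2 sum lay above every C1ql3 sum, and every C1ql3 sum lay above every Nwd2 sum. Adarb2 neurons were higher than the mean of the other groups by 1.35 ± 0.13 (adjusted p = 7.52e-12), where 14.1% of genes were called higher and 13.8% lower, and Nwd2 neurons were lower by 2.50 ± 0.18 (adjusted p = 6.96e-16). The neighbours Adarb2 and Gad2 did not differ beyond their spread (0.19 ± 0.20). Between Adarb2 and C1ql3 neurons the difference was 0.98 ± 0.14 (adjusted p = 2.57e-07), where 10% of genes were called higher and 13.4% lower in Adarb2 than in C1ql3 neurons. C1ql3 neurons were lower than Gad2 neurons by 0.79 ± 0.20 (adjusted p = 0.00573), where 3.48% of genes were called lower and 4.08% higher.

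Htr7 had 195, 217 and 267 CPM in C1ql3 neurons. It had 78.2, 142 and 273 CPM in Gad2 neurons, 67.2, 87.8 and 144 CPM in Adarb2 neurons, and 0, 23.3 and 67.9 CPM in Nwd2 neurons. The C1ql3 sums overlapped the Gad2 sums and lay clear of the Adarb2 and Nwd2 sums. C1ql3 neurons were higher than the mean of the other groups by 1.66 ± 0.10 (adjusted p = 1.31e-16), where 13.5% of genes were called higher and 7.25% lower, and were the highest group in 9 of 10 libraries. The difference between C1ql3 and Gad2 neurons was 0.40 ± 0.17 (adjusted p = 0.158), so this pair of neighbours was not separated. Adarb2 neurons were lower than C1ql3 neurons by 1.22 ± 0.11 (adjusted p = 1.30e-12).

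Nuclei with UMIs of both Htr2c and Htr7 made up 11.5% of C1ql3 neurons at the thinned depth. The share was 8.67% in Adarb2 neurons, 8.31% in Gad2 neurons and 0.618% in Nwd2 neurons. The share was 0.390% in oligodendrocytes, below the mean shares of the first 3 groups. Nuclei with Htr2c but not Htr7 made up 23.6% of C1ql3 neurons and 8.30% of oligodendrocytes. Those with Htr7 but not Htr2c made up 21.2% and 1.97%. A larger joint share follows where each gene is detected more often. Whether the genes were detected together more often than their single shares give was not tested.

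Htr1d, a Gi/o-coupled receptor gene, had 13.0, 16.0 and 28.8 CPM in C1ql3 neurons. Its level was 0, 1.07 and 2.33 CPM in Adarb2 neurons and 0, 0 and 5.02 CPM in Nwd2 neurons. Every C1ql3 sum lay above every sum of those groups, and C1ql3 neurons were higher than the mean of the other groups by 2.54 ± 0.22 (adjusted p = 1.56e-12). Adarb2 neurons were lower by 2.42 ± 0.44 and Nwd2 neurons by 2.77 ± 0.50, and neither call held in the female libraries alone (adjusted p = 0.0915 and 0.173). Both were also lost where only nuclei whose gate and deposited cluster agreed were used, an alternative added after the data were seen, with differences of −1.47 (adjusted p = 0.138) and −1.41 (adjusted p = 0.179). In Gad2 neurons Htr1d had 0, 13.6 and 32.8 CPM. Their fitted difference of 2.65 ± 0.42 turned to −0.058 when deposited clusters replaced the gate, with cluster 5 in place of the Gad2 group, and to −1.14 where gate and cluster agreed, with adjusted p-values of 0.958 and 0.715.

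Htr1b, which encodes the receptor that limits release at many axon terminals, had 4.41, 7.32 and 11.7 CPM in C1ql3 neurons and 1.11, 4.44 and 7.18 CPM in Adarb2 neurons. Of the Nwd2 sums, 8 of 10 were at 0 and the highest was 3.31 CPM, which rested on 5 UMIs in all. C1ql3 neurons were higher than the mean of the other groups by 1.17 ± 0.24 (adjusted p = 0.000147), and Nwd2 neurons were lower by 3.16 ± 0.49 (adjusted p = 4.73e-07). This C1ql3 call against the mean was lost in the female libraries alone (1.02, adjusted p = 0.128). By pairs, C1ql3 neurons were higher than Nwd2 neurons by 3.25 ± 0.47 (adjusted p = 1.05e-07). Adarb2 neurons were lower than C1ql3 neurons by 0.59 ± 0.20 (adjusted p = 0.0143). C1ql3 and Gad2 neurons did not differ beyond their spread (−0.34 ± 0.39, C1ql3 minus Gad2, adjusted p = 0.756). In Gad2 neurons Htr1b had 0, 10.7 and 26.1 CPM, with a difference of 1.62 ± 0.46 (adjusted p = 0.0113) that was lost without the library with no sex in its title 3 (adjusted p = 0.191), which held 84 of the 193 Gad2 nuclei. It was lost in 5 of 17 alternatives, with an adjusted p of up to 0.54 in the female libraries alone.

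Htr1f, the Gi/o-coupled receptor gene whose product is the target of an antimigraine drug, had 5.94, 66.3 and 130 CPM in Gad2 neurons. Its medians were 16.0 CPM in C1ql3 neurons, 11.2 CPM in Adarb2 neurons and 9.41 CPM in Nwd2 neurons. The ranges of all 4 groups overlapped, since 2 of the 6 Gad2 sums lay at 5.94 and 12.8 CPM. Gad2 neurons were higher than the mean of the other groups by 2.20 ± 0.33 (adjusted p = 3.26e-06), among 5 members called higher there against 7.66% of all genes, with 3.73% called lower. The Htr1f value stayed between 1.56 and 3.56 under every alternative run. The mean included Nwd2 neurons, where all 5 of these members were called lower. By pairs, Htr7, Htr1d and Htr1b were not called between C1ql3 and Gad2 neurons (adjusted p of 0.158 to 0.962). Nor was Htr2c between Adarb2 and Gad2 neurons (adjusted p = 0.561). The lower values of Nwd2 neurons (−1.16 ± 0.31, adjusted p = 0.00136) and C1ql3 neurons (−0.65 ± 0.20, adjusted p = 0.0101) were each lost without the library with no sex in its title 3 (adjusted p = 0.0606 and 0.161). In all, the Nwd2 call was lost in 3 of 21 alternatives, with an adjusted p of up to 0.0781. The C1ql3 call was lost in 4 of 21, with an adjusted p of up to 0.424. The mean in both contrasts included the Gad2 neurons. By pairs, C1ql3, Adarb2 and Nwd2 neurons were each lower than Gad2 neurons (adjusted p of 2.93e-06 to 2.21e-05). No pair among C1ql3, Adarb2 and Nwd2 neurons was called for Htr1f (adjusted p of 0.137 to 0.473).

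The 3 members below the filter in this split had few UMIs. Htr5a had 0, 7.30 and 15.8 CPM in Nwd2 neurons and medians of 2.45 CPM in C1ql3, 1.20 in Adarb2 and 0.505 in Gad2 neurons. Without the filter, Nwd2 neurons were higher by 2.18 ± 0.34 (adjusted p = 9.72e-10, with 14.1% of genes called higher in this way) and were the highest group in 9 of 10 libraries. Htr2a had 0, 2.55 and 16.2 CPM in Nwd2 neurons and 0, 2.52 and 49.6 CPM in Gad2 neurons, and it was at or below 2.45 CPM in every C1ql3 and Adarb2 sum. Its differences without the filter were 1.22 in Nwd2 and 2.34 in Gad2 neurons, on 19 and 10 UMIs, and 4.22% of genes were called higher in Gad2 neurons without the filter. Htr1a had 17 UMIs in C1ql3 neurons, 3 in Gad2, 2 in Adarb2 and 0 in Nwd2 neurons, and no difference passed (adjusted p of 0.162 to 1).

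The 8 neuron clusters of the deposited annotation gave a finer view that did not use the gate. Each cluster was assigned the regional marker that was highest relative to that marker's own mean over the 8 clusters, which gave C1ql3 for clusters 1, 2 and 4, Adarb2 for clusters 3, 7 and 8, Gad2 for cluster 5 and Nwd2 for cluster 6. Cluster 5 was mixed by these markers. It had more Adarb2 (312 CPM) and Nwd2 (149 CPM) than Gad2 (85.4 CPM), and of its 946 nuclei the gate put 112 in the Gad2 group, 116 in the Adarb2 group and 645 in none. Clusters 7 and 8 had 342 and 349 CPM of Adarb2, close to cluster 5 and far below the 1765 CPM of cluster 3. Of the 826 nuclei of cluster 7 the gate put 319 in the Adarb2 group and 404 in none. Cluster 8 also had 106 CPM of C1ql3. Since the clusters were drawn from these same nuclei, their levels are given as a description, in CPM without TMM scaling, as mean ± SD over 10 libraries.

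Htr2c varied most among the Adarb2-led clusters, from 391 ± 83.6 CPM in cluster 3 to 635 ± 131 in cluster 8 and 1006 ± 137 in cluster 7. In cluster 7 the lowest library, at 822 CPM, lay above the highest library of clusters 1 to 6. At the thinned depth, 77.4% ± 8.12 of its nuclei had a UMI of Htr2c, against 42.7% ± 4.72 in cluster 3. Among the C1ql3-led clusters Htr2c stood at 300 ± 33.2 CPM in cluster 1, 240 ± 28.3 in cluster 2 and 176 ± 24.7 in cluster 4. The libraries of cluster 3, at 287 to 508 CPM, overlapped those of cluster 1, at 255 to 361 CPM.

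Htr1d ran the other way among the C1ql3-led clusters, with 7.70 ± 2.54 CPM in cluster 1, 20.9 ± 10.5 in cluster 2 and 47.9 ± 9.95 in cluster 4. Htr7 varied less across them, at 217 ± 26.1, 186 ± 31.5 and 241 ± 27.0 CPM. In the Adarb2-led cluster 3 Htr7 had 72.6 ± 16.8 CPM, while clusters 7 and 8 held 139 ± 36.4 and 155 ± 32.2 CPM.

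Cluster 5, the mixed cluster, had the highest mean of 4 members. Htr1f stood at 64.3 ± 33.7 CPM there, Htr1b at 16.9 ± 4.03, Htr2a at 10.3 ± 5.65 and Htr1a at 2.13 ± 2.99. Its mean Htr1d level of 4.43 ± 4.90 CPM was below that of every C1ql3-led cluster, although its libraries overlapped those of clusters 1 and 2. Cluster 6, led by Nwd2, had 377 ± 119 CPM of Htr4 and 8.00 ± 4.94 CPM of Htr5a. The next highest cluster for Htr4 was cluster 5 with 35.3 ± 22.4 CPM, and no library of the 2 clusters overlapped.

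**Figure D3:**
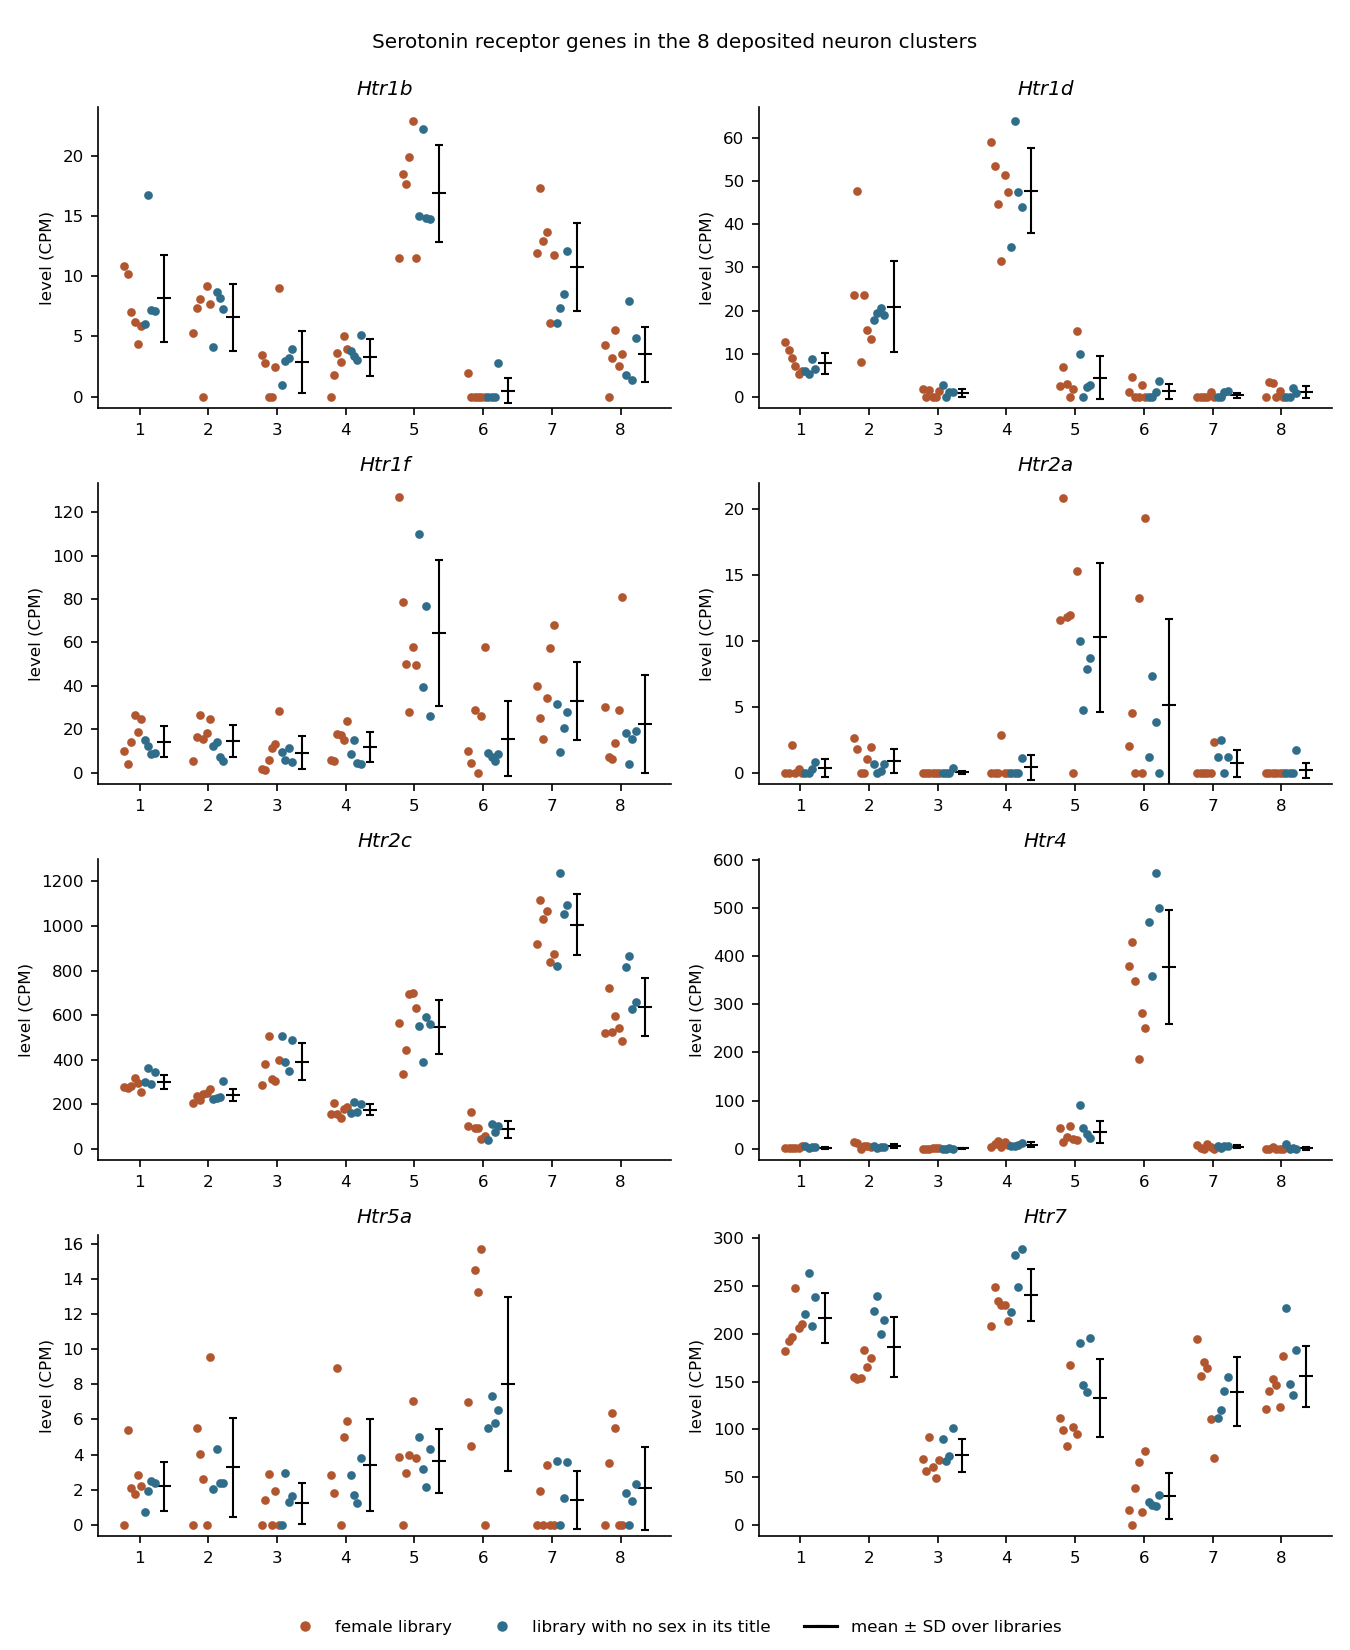
Levels of 8 serotonin receptor genes in CPM without TMM scaling (vertical axes, each with its own range) in the deposited neuron clusters 1 to 8 (horizontal axes); each point is a library, with the mean and SD over 10 libraries beside it, cut at the axis where they run below 0. Htr2c peaks in cluster 7 (1006 ± 137 CPM), Htr1d in cluster 4 (47.9 ± 9.95 CPM), Htr1f in cluster 5 (64.3 ± 33.7 CPM) and Htr4 in cluster 6 (377 ± 119 CPM).

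Within C1ql3 neurons, the subtype markers of the paraventricular thalamus gave 791 Col12a1 nuclei, 831 Cadps2 nuclei, 182 Npsr1 nuclei and 2576 nuclei with none of the 3, called the rest. The further markers listed for each subtype were highest in the expected group for 3 of 3 genes each, although Glis3, listed for the Cadps2 group (1053 CPM), was also at 474 CPM in the Npsr1 group. Markers listed for the subtypes without a group of their own were also present. Esr1 and Drd2 were highest in the Col12a1 group (27.2 and 32.4 CPM), and Drd3 and Glra2 in the Cadps2 group (62.2 and 98.1 CPM). The study's text, however, places Glra2 in the PVT4 subtype, for which it also used Npsr1 as a marker. The Npsr1 group had sums in 5 libraries. Of the members, Htr1d, Htr1f, Htr2c and Htr7 passed the filter, with 11008 genes tested.

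Htr1d had the largest differences of these 4 members between the subgroups. It had 26.0, 36.8 and 56.5 CPM in the Cadps2 group and 24.4, 36.7 and 54.5 CPM over the 5 libraries of the Npsr1 group. It had 8.08, 11.2 and 22.3 CPM in the rest and 1.62, 4.32 and 13.8 CPM in the Col12a1 group. No Cadps2 or Npsr1 sum overlapped the rest or the Col12a1 group. The Cadps2 group was higher than the mean of the other groups by 1.57 ± 0.12 on the log2 scale (adjusted p = 1.61e-17, with 6.17% of all genes called higher and 6.27% lower). The Npsr1 group was higher by 1.59 ± 0.21 (adjusted p = 1.66e-08, with 2.88% of genes called higher and 2.77% lower), and the Col12a1 group was lower by 2.52 ± 0.19 (adjusted p = 9.30e-19, with 6.36% called higher and 5.56% lower). Cadps2 and Npsr1 nuclei did not differ from each other beyond their spread (−0.01 ± 0.19). The Npsr1 call was lost in the female libraries alone (1.66, adjusted p = 0.339), of which 2 had such a sum.

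The rest was lower for Htr1d by 0.63 ± 0.13 (adjusted p = 0.000169, with 2.13% of genes called lower and 3.22% higher), and this call too was lost in the female libraries alone (adjusted p = 0.459). After thinning, 8.76% ± 3.98 of Cadps2 nuclei and 0.984% ± 1.84 of Col12a1 nuclei had a UMI of Htr1d, beside 0.370% of oligodendrocytes.

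Htr2c ran opposite to Htr1d, with smaller differences. It had 250, 356 and 419 CPM in the Col12a1 group, 213, 315 and 397 CPM in the rest, 148, 298 and 328 CPM in the Npsr1 group and 151, 222 and 280 CPM in the Cadps2 group. All 4 ranges overlapped. The Col12a1 group was higher than the mean of the other groups by 0.53 ± 0.08 (adjusted p = 3.21e-08). This value sits at the limit of 0.5 and fell to 0.49 without female library 1 or without the library with no sex in its title 1, and to 0.43 without the library with no sex in its title 3. In all, the Col12a1 call was lost in 6 of 19 alternatives. Between Cadps2 and Col12a1 nuclei the difference was −0.71 ± 0.09 (adjusted p = 2.96e-10), where 9.55% of genes were called lower and 9.54% higher in Cadps2 nuclei. Col12a1 nuclei were also higher than Npsr1 nuclei by 0.72 ± 0.13 (adjusted p = 1.60e-05). Between Col12a1 nuclei and the rest no difference was called (0.17 ± 0.08, adjusted p = 0.175).

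Against the mean of the other groups, Htr1f was higher in the Col12a1 group by 0.73 ± 0.18 (adjusted p = 0.00107) and lower in the Cadps2 group by 0.64 ± 0.21 (adjusted p = 0.0183). Its levels were 10.2, 18.7 and 27.6 CPM in the former and 3.72, 12.1 and 18.4 CPM in the latter, and these ranges overlapped. The Col12a1 call was lost in 2 of 18 alternatives, the female libraries alone (adjusted p = 0.228) and the fit without the library block (adjusted p = 0.25). The Cadps2 call was lost in 6 of 18, with a difference of −0.22 and an adjusted p of 0.796 in the female libraries alone, and also without the library with no sex in its title 2 (adjusted p = 0.0709) or 3 (adjusted p = 0.277). By pairs, Htr1f was lower in Cadps2 nuclei than in Col12a1 nuclei (−1.02 ± 0.20, adjusted p = 2.59e-05) and the rest (−0.75 ± 0.18, adjusted p = 0.000392). Col12a1 nuclei were not called against the rest (adjusted p = 0.339) or Npsr1 nuclei (adjusted p = 0.0854). Nor were Cadps2 nuclei called against Npsr1 nuclei (adjusted p = 0.933). Htr7 had 221, 247 and 313 CPM in the Cadps2 group and 174, 200 and 255 CPM in the rest, and its differences in all 4 contrasts stayed under the limit of 0.5, from −0.28 to 0.31.

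**Figure D4:**
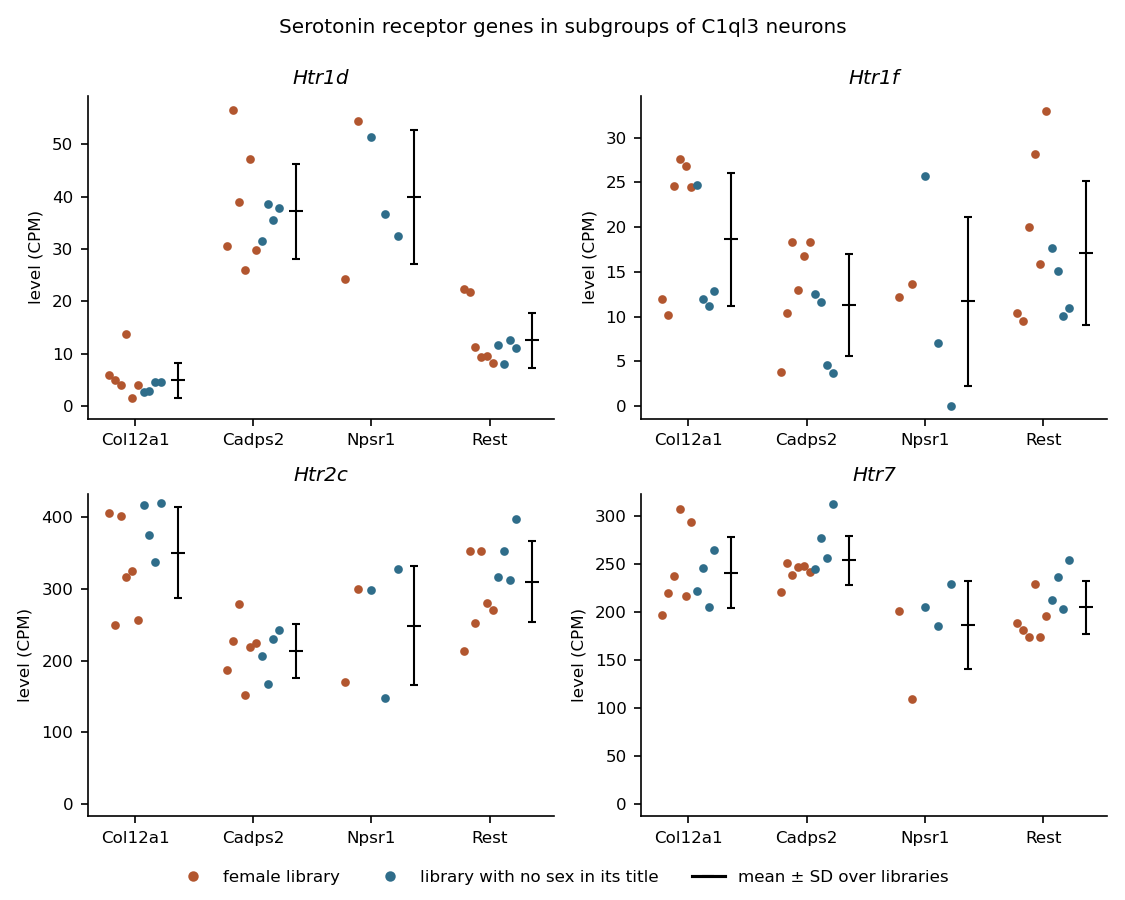
Levels of Htr1d, Htr1f, Htr2c and Htr7 in CPM (vertical axes, each with its own range) in C1ql3 neurons split by Col12a1, Cadps2 and Npsr1, with the rest beside them; each point is a library, with the mean and SD over libraries beside it. Htr1d lies at 24.4 to 56.5 CPM in the Cadps2 and Npsr1 groups and at 1.62 to 22.3 CPM in the Col12a1 group and the rest.

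Of the members below the filter, Htr4 was higher in the Cadps2 group without it, by 1.16 ± 0.24 (adjusted p = 2.08e-05, with 4.71% of genes called higher in this way), at 0, 7.74 and 18.8 CPM. In the rest Htr4 was lower by 0.82 ± 0.25 (adjusted p = 0.0188, with 0.944% called lower), at 0.505, 2.73 and 5.57 CPM. Htr1b was higher in the rest by 0.90 ± 0.19 (adjusted p = 6.10e-05, with 2.39% called higher), at 6.02, 9.34 and 16.2 CPM. These levels are small beside the 170 to 603 CPM of Htr4 in Nwd2 neurons.

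The 6 female libraries were compared with the 4 libraries without a sex in the title over all neurons. With the metadata's record of the 4 as male, sex, library set and depth cannot be told apart in this comparison, and any difference in composition enters the sums. Of the 7 members that passed the filter, with 15278 genes tested, Htr1f was called, as were 6.23% of all genes in the higher and 7.37% in the lower direction. Htr1f had 30.2 ± 10.3 CPM in the female libraries (19.0 to 47.1) and 18.3 ± 3.31 CPM in the others (15.2 to 22.9), and the ranges overlapped. These levels carry the TMM scaling of the cell type sums, whereas the test scaled the neuron sums by themselves. Without TMM scaling Htr1f had 23.7 ± 8.00 CPM in the female libraries and 13.5 ± 2.36 CPM in the others. The difference was 0.76 ± 0.23 (adjusted p = 0.0471). With 8 of 15 alternatives the adjusted p passed 0.05, reaching 0.165 with replicate numbers as a block, and leaving out any of 7 single libraries lost the call. Those libraries were female 1, 4, 5 and 6 and the libraries with no sex in the title 2, 3 and 4. Htr7 differed by −0.33 ± 0.12 (adjusted p = 0.0895) and Htr2c by −0.07 ± 0.11 (adjusted p = 0.713). Whether the differences between groups of neurons depended on the library set was tested as an interaction in edgeR. Of 40 such tests over the members, 0 were called and 5 had an unadjusted p under 0.05.

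Htr4 over all neurons followed the share of Nwd2 neurons in each library. Without TMM scaling it ranged from 7.87 CPM in female library 6, where 1.96% of neurons were Nwd2 neurons, to 89.9 CPM in female library 1 with 21.7% and 87.2 CPM in the library with no sex in its title 1 with 26.0%. Its difference between the sets was −0.81 ± 0.61 (adjusted p = 0.438), and it changed to −1.60 (adjusted p = 0.0284) without female library 1. Within Nwd2 neurons alone, Htr4 had 301 ± 101 CPM in the female libraries and 523 ± 109 CPM in the others, with ranges of 170 to 437 and 363 to 603 CPM. The test of whether the Nwd2 difference depended on the set gave −1.12 with an unadjusted p of 0.0321 and an adjusted p of 0.366.

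**Figure D5:**
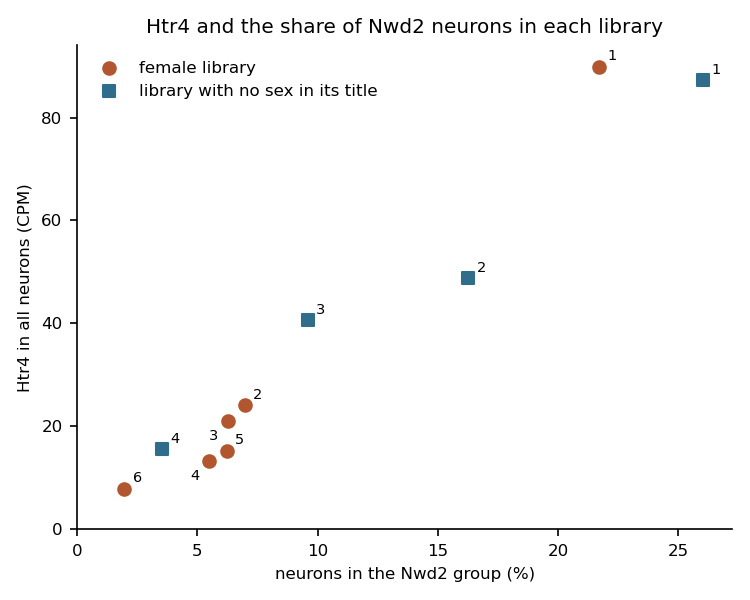
Htr4 over all neurons in CPM without TMM scaling (vertical axis) against the percentage of neurons in the Nwd2 group (horizontal axis); each point is a library, numbered by replicate within its set. The libraries with most Nwd2 neurons, at 21.7% and 26.0%, have 89.9 and 87.2 CPM of Htr4, and the library at 1.96% has 7.87 CPM.

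The other genes of the serotonin system were taken from 9 lists of 47 genes in all. In the list of synthesis, transport and breakdown, the genes differed widely in UMIs over all 20503 nuclei. The transporter Slc6a4 had 26 UMIs, the synthetic enzymes Tph1 and Tph2 had 18 and 64, and the transcription factor Fev had 6. In the same list Slc18a2 had 1730 UMIs, Ddc 792, Maoa 9447 and Maob 15002. Of the other receptor genes, Htr2b had 2178 UMIs in all, Htr5b 637 and Htr6 199. Of the 2 tested in the regional split, 1 was called higher in Nwd2 neurons, namely Htr5b. It had 48.2, 71.4 and 124 CPM in Nwd2 neurons and medians of 0.851, 1.01 and 0 CPM in C1ql3, Adarb2 and Gad2 neurons, and Nwd2 neurons were higher by 5.92 ± 0.23 (adjusted p = 5.74e-24). Htr5b encodes a receptor of the Htr5 family and, like Htr4, was at its highest in the group with the habenular marker. The channel subunit genes Htr3a and Htr3b had 6 and 7 UMIs in all. In the split of C1ql3 neurons 1 of the other receptor genes was tested. It was called lower in the Col12a1 group (−0.53), where 5.56% of all genes were called lower and 6.36% higher.

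Several lists of signalling genes were mostly lower in Nwd2 neurons, where 21.5% of all genes were called lower. Of the 4 GIRK channel genes 3 were called lower and none higher, with Kcnj3 at 15.8, 33.5 and 69.4 CPM there against 163, 201 and 286 CPM in C1ql3 neurons (−2.75 ± 0.13, adjusted p = 1.03e-21). Of the 8 adenylyl cyclase genes 6 were lower, among them Adcy5 (−3.18 ± 0.21), and Adcy8 was higher (0.56 ± 0.11). The list median was −1.33 for the cyclases and −1.80 for the GIRK genes, beside 0.03 over all genes tested. Among 4 tested genes of phospholipase C beta and IP3 receptors 3 were lower, including Plcb1 (−2.97 ± 0.16), and Itpr2 was higher (2.04 ± 0.19). Gnaq, the main Gq subunit gene, was lower by 1.65 ± 0.09, whereas Gnal, a Gs-type subunit gene, was higher by 0.60 ± 0.09. The Gi/o subunit list had 1 gene higher and 2 lower of 5, the list of receptor partners and editing enzymes 1 higher and 2 lower of 4 tested, and that of synthesis, transport and breakdown 1 higher and 1 lower of 3 tested.

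C1ql3 neurons had higher Kcnj5, another GIRK subunit gene, by 2.42 ± 0.18 and higher Maob, which encodes a monoamine-degrading enzyme, by 1.73 ± 0.11. In Adarb2 neurons, where 14.1% of all genes were called higher and 13.8% lower, 4 cyclase genes were higher and 1 lower of 8, and 3 GIRK genes were higher and 1 lower of 4. Of the phospholipase C and IP3 receptor genes 3 were higher and 1 lower of 4 tested, and of the receptor partners and editing enzymes 1 was higher and 1 lower of 4 tested. Adarb2 neurons were higher for Plcb4 (1.35 ± 0.07), Itpr1 (1.35 ± 0.09), Adcy1 (2.09 ± 0.11) and Adarb1 (1.93 ± 0.09), the last of which encodes an enzyme known to edit Htr2c transcripts, and lower for Adcy2 (−1.92 ± 0.19), Itpr2 (−1.44 ± 0.22) and Kcnj5 (−1.68 ± 0.28). Editing itself was not measured here. In the subgroups the GIRK genes moved in both directions. Of the 4, 1 was higher and 2 were lower in the Cadps2 group, and 2 were higher and 1 was lower in the Col12a1 group. Of all genes, 6.17% were called higher and 6.27% lower in the Cadps2 group, and 6.36% higher and 5.56% lower in the Col12a1 group. Kcnj5 was higher in the Cadps2 group (1.20 ± 0.10) and lower in the Col12a1 group (−1.53 ± 0.14), whereas Kcnj9 was lower (−0.94 ± 0.08) and higher (0.59 ± 0.07). Of the 8 cyclase genes, 3 were lower and 0 higher in the Cadps2 group and 3 were higher and 0 lower in the Col12a1 group, with Adcy2 at −1.84 ± 0.15 and 1.79 ± 0.10.

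As a description, the genes most like each member were sought over the 36 sums of neuron groups and libraries, by Pearson r of log2 CPM after the mean of each library was subtracted, among 11666 genes. Sums of the same library share its depth and RNA pool. The sums also repeat the same marker-set groups over the libraries, so a high r can follow from the levels of the groups alone. Whether such genes vary together within a group was not tested. Htr4 was most like Nrp2 (r = 0.97) and Msi2 (r = 0.97), and Htr2c was most like Rasgrf1 (r = 0.97) and Cdh13 (r = 0.94). For Htr7 these were Gnaz (r = 0.95), a Gi/o subunit gene, and Gpc6 (r = 0.94). Htr1d was closest to Gm12930 (r = 0.93) and Nptxr (r = 0.89), Htr1b to Wscd2 (r = 0.91) and Sema3f (r = 0.90), and Htr1f to Nsmaf (r = 0.76) and Ap4s1 (r = 0.75).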

How the data were processed

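UMI counts of 33502 genes in 20503 nuclei of 10 libraries were used as deposited. The authors made nuclei from tissue punches, prepared 10x Genomics 3′ v3 libraries and, per the submitters' processing notes, used Cell Ranger 6.1.1 with the mm10 build, whereas the study's methods name an earlier version; filtering and clustering by the authors gave the deposited cell types, from which doublet clusters had been removed, and 23 further metadata columns were not used. The members and gene lists were chosen with earlier results of these data known.

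Counts were summed per library and group, leaving out sums under 10 nuclei, and tested with edgeR 4.0.16 in R 4.3.3 (TMM, filterByExpr, glmQLFit with the library as a block, glmQLFTest). Adjusted p-values are Benjamini-Hochberg over all genes tested. The comparison of library sets had no block. A call needed an adjusted p under 0.05 and a log2 difference over 0.5. The thresholds follow the study, which tested nuclei, whereas libraries are the replicates here. In the fits with the block, p-values weigh a difference between groups against how it varies over libraries. In the comparison of library sets they weigh it against the spread between libraries. Alternatives were DESeq2 1.42.0 and its size factors, no filter, no block, each library set alone, 20 nuclei per sum, a stricter gate (3 UMIs, 50%), deposited clusters, neurons thinned to 4000 UMIs and each library left out in turn. Named genes were the 9 members, the 47 list genes, and the 2 genes most like each filtered member. The fits were checked on simulated counts. Shared replicate numbers did not pair the sets. Intervals from counts cover counting error only. The result for 1 marker gene is not reported here.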

Additional observations from a re-analysis of the deposited data

Results flagged for a closer look

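Libraries that stood apart from the others of their group were sought with Dixon's test at the 95% level in 35 groups of sums with 4 to 10 libraries. Chance flags about 1 in 20 such groups, and 5 were flagged. Of the 5, 4 concern Htr2c in the library with no sex in its title 4, which was the highest library in neurons (644 CPM, the others 382 to 517), C1ql3 neurons (378 CPM, the others 238 to 307), astrocytes (95.8 CPM, the others 13.5 to 53.6) and oligodendrocytes (139 CPM, the others 13.4 to 75.2). This library also held the most nuclei (7213) and the most UMIs (55956635). Without TMM scaling its neurons had 434 CPM of Htr2c, and the others had 321 to 397 CPM. Dixon's test was run on the TMM-scaled levels only, so the flag does not cover these values. The fifth concerns Htr1f in Adarb2 neurons of female library 6, at 50.3 CPM, with the others at 6.95 to 25.8 CPM.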

How the results depend on the processing

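Counts of calls over members and contrasts were 5 between cell types, 19 between regional groups, 7 between subgroups and 1 between library sets. Between cell types the count was 16 without the filter and 9 with at least 20 nuclei per sum, and it was 4 to 6 with each library left out. Between regional groups it was 15 to 24 under every alternative and 16 to 19 with a library left out. Between subgroups it was 3 with no replicate block (the library term left out), 2 in the female libraries alone and 6 to 8 with a library left out. Between library sets it was 0 with a replicate block of shared numbers and 0 to 1 with a library left out. The numbers did not pair the libraries, with correlations of deviations of −0.104, −0.125, −0.131 and 0.157 for numbers 1 to 4. The share of neurons with a UMI of Htr2c was 38.4% thinned to 2000 UMIs, 24.8% at 1000 and 66.1% without thinning. The Gad2 value of Htr1d reversed to −0.058 with deposited clusters and to −1.14 where gate and cluster agreed, and the cause was not tested. Among values of called members, 271 kept direction and call, 34 kept direction alone and 2 reversed under alternatives other than leaving out 1 library, and with a library left out 294 kept both and 17 kept direction alone. Depth limits Htr1a (39 UMIs) and Htr2a (163 UMIs) most.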
